A study of Mus musculus with 4 samples.

Results

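Interferon-induced GTPases are large GTP-cleaving proteins that cells make in answer to interferon, and 10 mouse genes of this family were followed in C3H10T1/2 cells before and after 5-AZA. They were chosen by gene name from the deposited table of mRNA transcripts, and the FPKM of all transcripts of a gene was summed. These genes and the gene lists below were chosen with earlier results of these data known. Their counts beside those of all genes are therefore descriptions. FPKM counts sequenced fragments per kilobase of transcript and corrects for how deeply each library was sequenced. The 10 genes, Gbp2, Gbp3, Gbp4, Gbp5, Gbp6, Gbp7, Igtp, Iigp1, Irgm1 and Irgm2, had 39 of the 75959 transcripts and were 10 of 21878 genes in that table, and 3 of 4295 circRNAs had one of them as the host gene. C3H10T1/2 is an established mouse line with properties of mesenchymal stem cells. The drug 5-AZA, or 5-azacytidine, is taken up into DNA in place of cytidine and traps the enzymes that methylate it. The study compared 2 untreated samples (replicates 1 and 2) with 2 samples given 20 μM 5-AZA for 72 hours and then kept for 21 days in fresh medium (replicates 101 and 102), in order to find RNAs that change as the cells turn toward skeletal and heart muscle. No genotype or transgene set the groups apart. The labels gave no time in culture for the untreated samples, so treatment and time in culture cannot be told apart. The study calls the replicates biological repeats, without saying how the cultures were separated. It also describes picking clones of myotube-like cells, without saying whether the sequenced samples came from such clones.

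As background, interferons bind receptors at the cell surface, and the receptors signal through JAK kinases and STAT proteins to the promoters of responsive genes. The guanylate-binding proteins (Gbp genes) and the immunity-related GTPases (Irg genes, here Igtp, Iigp1, Irgm1 and Irgm2) are among the genes switched on most strongly in mouse cells. The proteins gather on vacuoles that hold parasites or bacteria, and help to break them open. They are best known from macrophages, but fibroblasts and other cells make them too.

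Sums of FPKM over all transcripts ranged from 328410 to 361664 per sample. FPKM values carry no counts, so the reads behind each of them are unknown. The labelled cell type was checked against 8 mesenchymal markers. Vim was the highest of them, at 2268 and 2406 FPKM in the untreated samples and 1178 and 1380 FPKM after 5-AZA, whereas Nt5e was listed at 0 in both untreated samples. Thy1 was the marker called higher, with 0.578 and 0.785 FPKM and then 10.4 and 14.2 FPKM (log2 fold change 3.98, limma adjusted p = 5.89e-06). The other 6 tested markers were not called and had log2 fold changes on both sides of 0, from -0.87 for Vim to 0.80 for Eng. All of these but Pdgfrb (0.30, limma adjusted p = 0.0653) had a limma adjusted p below 0.05 and missed the 2-fold limit alone. All 6 skeletal muscle markers were called higher after 5-AZA, with a median log2 fold change of 8.46. The largest changes were those of Mylpf (9.79), Acta1 (9.29), Tnni2 (8.74) and Ckm (8.17), and 4 of the 6 (Myod1, Myog, Tnni2 and Ckm) passed the limit on low values through the 5-AZA samples alone. Fewer cells of a type and less RNA per cell cannot be told apart in bulk samples.

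Of the 10 GTPase genes, 9 had a mean of at least 0.1 FPKM and were tested, and 9 of 9 were called higher after 5-AZA (limma, Benjamini-Hochberg adjusted p below 0.05 and a change over 2-fold). Called higher were 13.1% of all 13199 genes tested (1724 genes), and called lower were 1.32% (174 genes). None of the 9 passed the limit on low values through the 5-AZA samples alone. The median log2 fold change was 3.70 over the 9 genes and 0.05 over all genes tested. All 10 genes had both 5-AZA values above both untreated values, as had 36.8% of all genes tested. After quantile normalization the 9 genes were still called higher, and the split of all genes was 1041 higher and 886 lower. With 2 samples against 2, no exact permutation test of a single gene can give a p-value below 0.333.

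**Figure D1:**
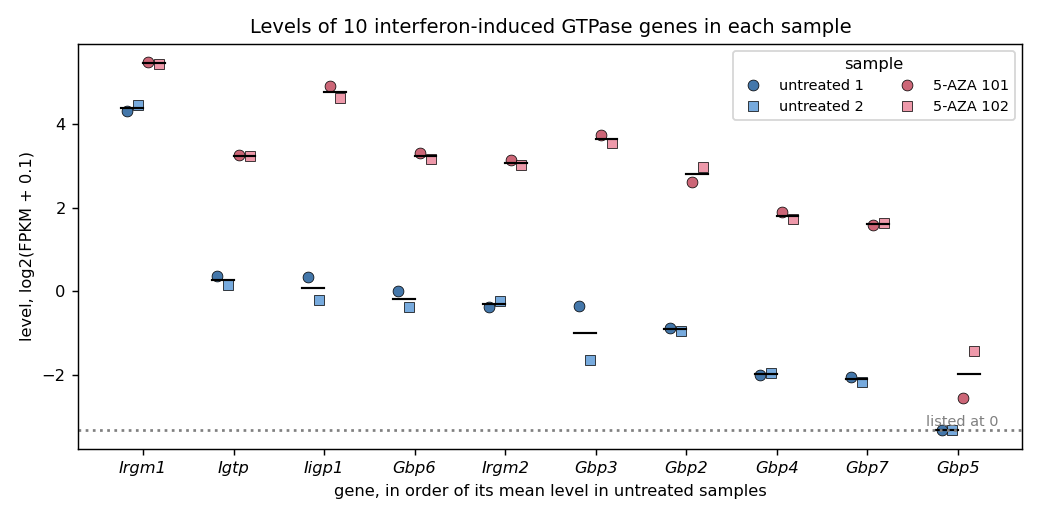
Level of each GTPase gene in each sample as log2(FPKM + 0.1), with genes in order of their mean untreated level. Blue points are untreated samples, red points are 5-AZA samples and bars are group means. Every red point lies above the blue points of its gene, and Irgm1 alone starts near its later level.

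Among the guanylate-binding proteins, Gbp2 is one of those that coat the vacuole of Toxoplasma. It had 0.446 and 0.421 FPKM in the untreated samples and 6.03 and 7.70 FPKM after 5-AZA. The means were 0.433 ± 0.0177 and 6.87 ± 1.18 FPKM (SD, n = 2 each), a ratio of 15.9. The log2 fold change on the log2(FPKM + 0.1) scale was 3.70 (SE 0.22, limma adjusted p = 7.35e-06). The gap between the groups was far wider than the spread within either.

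Gbp3 was the most abundant Gbp gene after treatment. Its level was 0.686 and 0.219 FPKM without treatment and 13.3 and 11.6 FPKM after 5-AZA. The ratio of means was 27.5, and the log2 fold change was 4.64 (SE 0.37, limma adjusted p = 3.79e-05). The untreated values differed more from each other than those of the other Gbp genes detected there, and ratios of single samples ran from 16.9 to 60.7. Without 5-AZA replicate 101 the log2 fold change was 4.54 (limma adjusted p = 0.0995), and without 5-AZA replicate 102 it was 4.74 (limma adjusted p = 0.0962), so that Gbp3 was not called in either fit.

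Gbp4 and Gbp7 were low before treatment and stood close together in every sample. For Gbp4 the untreated values were 0.151 and 0.160 FPKM, and the 5-AZA values 3.59 and 3.19 FPKM. Its means were 0.155 ± 0.00618 and 3.39 ± 0.283 FPKM (SD, n = 2 each), a ratio of 21.9, with a log2 fold change of 3.77 (SE 0.26, limma adjusted p = 1.45e-05). Gbp7 had 0.142 and 0.124 FPKM untreated and 2.91 and 2.99 FPKM after 5-AZA. The ratio was 22.1 and the log2 fold change 3.71 (SE 0.26, limma adjusted p = 1.83e-05). For both genes the groups were widely separated and the replicates nearly alike.

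Gbp6, the most abundant Gbp gene before treatment, had 0.904 and 0.665 FPKM untreated and 9.72 and 8.77 FPKM after 5-AZA. Its means of 0.785 ± 0.169 and 9.25 ± 0.672 FPKM (SD, n = 2 each) gave a ratio of 11.8, and the log2 fold change was 3.41 (SE 0.21, limma adjusted p = 7.78e-06). Gbp6 closely resembles its neighbour Gbp10, so reads may have been divided between them, and the level of each is uncertain to that degree.

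Gbp5, which helps to assemble inflammasomes in macrophages, was the lowest of the 10 genes. It was listed at 0 in both untreated samples and had 0.0715 and 0.272 FPKM after 5-AZA. Its mean over all samples fell under the limit of 0.1 FPKM, so it was not tested and no fold is given. With no limit on low values its log2 fold change was 1.34 (limma adjusted p = 0.200), and it was not called.

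Of the immunity-related GTPases, Iigp1 (also called Irga6) is an effector, the kind that loads onto vacuoles and damages them. It had 1.18 and 0.760 FPKM in the untreated samples and 29.6 and 24.5 FPKM after 5-AZA. The means were 0.968 ± 0.293 and 27.0 ± 3.65 FPKM (SD, n = 2 each), a ratio of 27.9. The log2 fold change of 4.69 (SE 0.21, limma adjusted p = 1.91e-06) was the largest of the 9 tested GTPase genes and ranked 176 of 13199 from the top. All 4 ratios of single samples lay between 20.8 and 39.0.

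Igtp (Irgm3), Irgm2 and Irgm1 are regulators, which hold the effectors inactive on the membranes of the host cell. Igtp stood at 1.19 and 1.01 FPKM untreated and at 9.38 and 9.29 FPKM after 5-AZA. Its ratio of means was 8.47 and its log2 fold change 2.98 (SE 0.18, limma adjusted p = 7.46e-06). Irgm2 went from 0.671 and 0.758 FPKM to 8.66 and 7.98 FPKM, a ratio of 11.7 and a log2 fold change of 3.37 (SE 0.19, limma adjusted p = 5.82e-06). In both genes the replicates of a group lay close together against the gap between groups.

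Irgm1 (LRG-47), known for its part in resistance to mycobacteria, differed from the other genes in its starting level. It had 19.6 and 21.9 FPKM without treatment and 44.1 and 42.9 FPKM after 5-AZA. The means of 20.7 ± 1.58 and 43.5 ± 0.813 FPKM (SD, n = 2 each) gave a ratio of 2.10, with ratios of single samples from 1.96 to 2.25. The log2 fold change of 1.07 (SE 0.11, limma adjusted p = 1.28e-04) lay just above the limit of 1. Each sample centred on its median moved the median of all genes by -0.11 on the log2 scale and put Irgm1 at 0.96 (limma adjusted p = 0.00156), below that limit. The call was also lost without untreated replicate 1 (log2 fold change 0.99, limma adjusted p = 7.72e-05), without 5-AZA replicate 101 (1.05, limma adjusted p = 0.0566) and without 5-AZA replicate 102 (1.09, limma adjusted p = 0.0562). Its direction was the same in each of these fits.

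**Figure D2:**
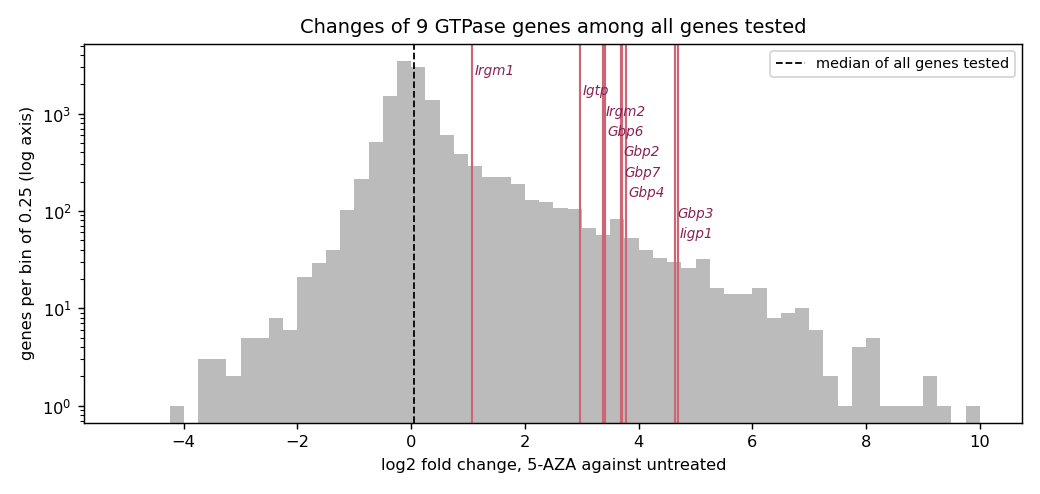
Histogram of the log2 fold changes of all 13199 genes tested, with a log axis for the number of genes. Red lines mark the 9 tested GTPase genes and the dashed line marks the median of all genes, 0.05. Of these 9, 8 lie between 2.98 and 4.69, and Irgm1 lies at 1.07.

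Since FPKM is scaled to length, levels can be set side by side between genes. The 10 genes summed to 25.0 and 26.0 FPKM in the untreated samples and to 127 and 119 FPKM after 5-AZA, a ratio of means of 4.84. Irgm1 made up 78.5% and 84.1% of that sum before treatment and 34.6% and 36.0% after it. Iigp1 went from 4.70% and 2.93% to 23.3% and 20.5%. The 6 Gbp genes together had 2.33 and 1.59 FPKM untreated and 35.6 and 34.5 FPKM after 5-AZA, a ratio of 17.9, whereas the 4 Irg genes had 22.7 and 24.4 FPKM and then 91.8 and 84.7 FPKM, a ratio of 3.75. The smaller ratio of the Irg genes came with the weight of Irgm1 in their sum, since the median log2 fold changes per gene were 3.17 for the 4 Irg genes and 3.71 for the 5 tested Gbp genes.

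In the untreated samples the order of levels was Irgm1, Igtp, Iigp1, Gbp6, Irgm2, Gbp3, Gbp2, Gbp4, Gbp7 and Gbp5. From Igtp down to Gbp2, the values of each gene overlapped those of the next, so this middle stretch has no firm order. After 5-AZA the order was Irgm1, Iigp1, Gbp3, Igtp, Gbp6, Irgm2, Gbp2, Gbp4, Gbp7 and Gbp5, and of these neighbours only Igtp and Gbp6 overlapped. Gbp3 went from rank 6 to rank 3, and the lowest 4 genes kept their places.

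The promoters of the members were read for the elements through which interferon is known to act. RefSeq promoter windows on build GRCm38.p6, running from 250 bases before to 50 bases after the start of a gene, were at hand for 7 members, in 8 windows because Gbp3 has a pair of starts. Gbp4, Gbp6 and Iigp1 had no entry. The interferon-stimulated response element (ISRE) is bound by a complex of STAT proteins with Irf9 and by other Irf proteins, and its core was searched as GAAANNGAA on both strands. The gamma-activated site (GAS) is bound by pairs of STAT proteins, and was searched as TTCNNNGAA, which reads the same on both strands. The 6 windows below are shown because they hold both elements (Gbp5, Gbp7, Igtp and Irgm2), belong to the gene with the highest untreated level (Irgm1) or to the Gbp gene with the largest change (Gbp3). Capitals mark every match as it reads on the strand of the gene.
Gbp3, first start, chr3:142559794-142560093, plus strand: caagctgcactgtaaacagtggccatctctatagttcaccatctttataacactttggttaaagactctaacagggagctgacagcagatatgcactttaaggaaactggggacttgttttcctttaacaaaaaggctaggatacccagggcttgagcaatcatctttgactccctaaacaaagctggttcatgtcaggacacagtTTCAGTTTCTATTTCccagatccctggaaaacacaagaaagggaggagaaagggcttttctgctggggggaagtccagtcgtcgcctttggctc
Gbp5, chr3:142496684-142496983, plus strand: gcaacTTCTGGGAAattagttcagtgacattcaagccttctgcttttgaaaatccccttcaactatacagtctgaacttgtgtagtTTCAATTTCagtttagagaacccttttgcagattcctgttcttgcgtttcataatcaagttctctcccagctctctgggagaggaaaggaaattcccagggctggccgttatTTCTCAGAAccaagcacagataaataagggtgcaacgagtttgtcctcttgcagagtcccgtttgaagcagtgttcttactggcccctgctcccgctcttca
Gbp7, chr3:142530086-142530385, plus strand: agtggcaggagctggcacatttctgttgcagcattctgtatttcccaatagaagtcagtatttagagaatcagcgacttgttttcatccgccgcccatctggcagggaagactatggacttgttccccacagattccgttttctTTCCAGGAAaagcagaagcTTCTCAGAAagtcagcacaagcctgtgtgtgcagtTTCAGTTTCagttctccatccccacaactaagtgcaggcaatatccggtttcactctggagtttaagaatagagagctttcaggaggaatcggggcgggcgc
Igtp, chr11:58199306-58199605, plus strand: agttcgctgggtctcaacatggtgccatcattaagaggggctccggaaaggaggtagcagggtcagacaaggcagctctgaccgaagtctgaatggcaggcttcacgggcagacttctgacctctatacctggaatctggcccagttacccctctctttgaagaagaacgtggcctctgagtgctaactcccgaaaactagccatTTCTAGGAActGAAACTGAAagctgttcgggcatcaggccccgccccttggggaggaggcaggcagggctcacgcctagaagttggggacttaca
Irgm2, chr11:58214727-58215026, plus strand: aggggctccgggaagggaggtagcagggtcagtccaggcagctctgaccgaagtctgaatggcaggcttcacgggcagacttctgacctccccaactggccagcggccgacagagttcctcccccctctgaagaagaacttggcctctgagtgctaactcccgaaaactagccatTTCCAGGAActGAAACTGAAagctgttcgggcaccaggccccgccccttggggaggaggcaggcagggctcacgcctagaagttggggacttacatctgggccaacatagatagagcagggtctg
Irgm1, chr11:48871371-48871670, minus strand: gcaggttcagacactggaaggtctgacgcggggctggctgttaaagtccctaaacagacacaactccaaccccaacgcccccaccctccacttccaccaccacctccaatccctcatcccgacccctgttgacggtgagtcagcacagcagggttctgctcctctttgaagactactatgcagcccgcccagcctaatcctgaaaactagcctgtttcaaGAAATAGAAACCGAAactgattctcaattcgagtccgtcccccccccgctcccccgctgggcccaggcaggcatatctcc

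All 7 genes had a GAAANNGAA match, in 7 of the 8 windows, whereas 8.56% of all 32851 promoter windows had one. The second window of Gbp3 had none. There were 9 matches, 24 to 164 bases before the start, and 8 of them began within 100 bases of it. In Gbp2 the match began 58 bases before the start. Gbp3 and Irgm1 each had a pair of matches that shared 3 bases. The TTCNNNGAA element was in 4 of the 8 windows, with 2 matches in Gbp5, 2 in Gbp7, 1 in Igtp and 1 in Irgm2, and in 8.30% of all windows. Both elements were in the same 4 windows and in 1.07% of all windows, and no ISRE match overlapped a GAS match. Gbp5, the lowest of the 10 genes in both groups, had both elements, and Irgm1, the highest, had ISRE matches alone. The windows of Igtp and Irgm2 shared a stretch of 61 identical bases, and no other pair shared more than 13. CpG sites, at which methylation is placed, numbered 2 to 11 in the windows of the members (median 6.5) and 0 to 67 in all windows (median 7). Methylation itself was not measured in these samples, and a match of letters is a description and no evidence of binding.

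**Figure D3:**
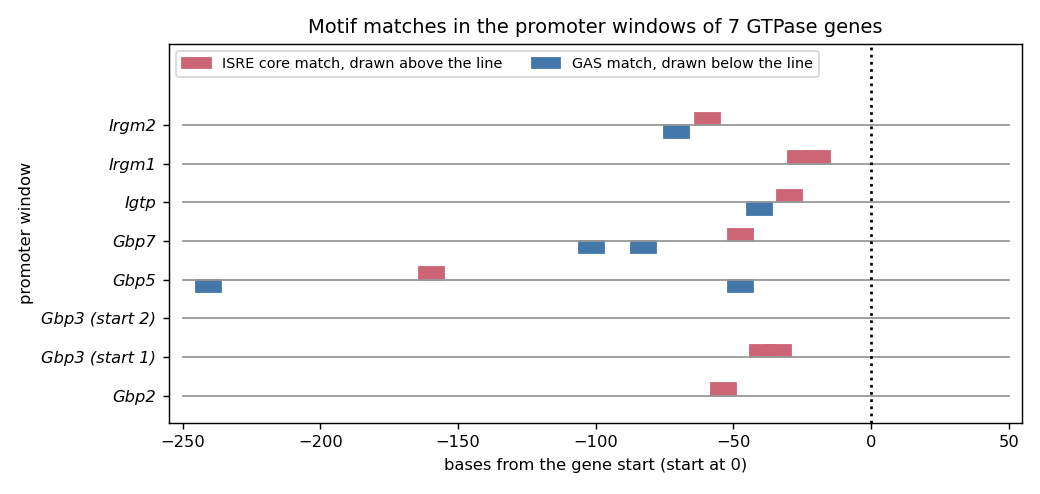
Positions of the motif matches in the 8 promoter windows, in bases from the start of the gene on the strand of the gene. Red boxes above each line are ISRE core matches and blue boxes below it are GAS matches. Of the 9 ISRE matches 8 begin within 100 bases of the start, and only the second window of Gbp3 is bare.

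The gene sums were next divided into their transcripts. The 10 genes had 39 transcripts, from 1 for Gbp2 (NM_010260.1), Gbp5, Igtp (NM_018738.4) and Irgm2 (NM_019440.3) to 9 for Gbp4, and none was listed at 0 in all samples. Of these, 28 were tested and 12 were called higher, with 0 called lower. Called higher were 2.10% of all 35557 transcripts tested. Since 14 of the 28 passed the limit on low values through a single group, their count supports nothing by itself, and transcripts of this kind are given below by their values alone. The number called was 3 without untreated replicate 1, 1 without untreated replicate 2 and 0 without either 5-AZA replicate, so that calls on single transcripts rest on all 4 samples. Reads that fit several transcripts were divided by the authors' software, and this division makes each transcript less certain than its gene.

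Gbp3 after 5-AZA consisted mainly of transcript variant 3 (NM_001289493.1), which had 0.237 and 3.61e-04 FPKM untreated and 9.39 and 6.70 FPKM treated. Its share of the gene was 26.2% of the untreated mean and 64.7% of the 5-AZA mean, and its log2 fold change was 5.45 (SE 0.67, limma adjusted p = 0.0204). Variant 2 (NM_018734.3) went from 0.119 and 1.59e-04 FPKM to 2.17 and 1.89 FPKM. Both variants were near 0 in untreated replicate 2, where the gene itself was lowest.

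In Iigp1, variant 2 (NM_001146275.1) had 0.846 and 0.232 FPKM untreated and 8.75 and 11.9 FPKM after 5-AZA (log2 fold change 4.20, limma adjusted p = 0.0241). Variant 1 (NM_021792.4) had 0.0771 and 0.180 FPKM and then 8.43 and 8.41 FPKM, and its share of the gene was 13.3% before and 31.1% after (log2 fold change 5.26, limma adjusted p = 0.00586). Variant X1 (XM_011246977.2) had 0.0424 and 0.111 FPKM untreated and 2.61 and 2.50 FPKM after 5-AZA. Variant X4 (XM_011246980.1) had 9.02 FPKM in replicate 101 but 1.22 FPKM in replicate 102, and was not called (limma adjusted p = 0.129). The replicates thus divided the same gene level differently among its transcripts.

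Gbp6 showed the same kind of split. Variant X2 (XM_011249386.2) had 5.59 and 2.63 FPKM after 5-AZA and 0.583 and 0.640 FPKM before, and was not called (log2 fold change 2.47, limma adjusted p = 0.0639). The transcript NM_194336.2 went from 0.0577 and 0.00743 FPKM to 1.78 and 3.60 FPKM. One of these stood higher in replicate 101 and the other in replicate 102. Gbp7 came mostly from variant 2 (NM_001083312.2), at 2.32 and 2.93 FPKM after 5-AZA (log2 fold change 3.55, limma adjusted p = 0.0283). In Gbp4, variant X6 (XM_006534806.3) was at or near 0 untreated and had 1.71 and 2.03 FPKM after 5-AZA, 55.1% of the gene.

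Irgm1 was carried mainly by a pair of transcripts. Variant X1 (XM_006532305.2) had 9.08 and 13.0 FPKM untreated and 28.5 and 27.5 FPKM after 5-AZA, a log2 fold change of 1.35 (SE 0.20, limma adjusted p = 0.0349). The transcript NM_008326.1 had 8.80 and 8.47 FPKM and then 15.3 and 13.6 FPKM, a log2 fold change of 0.73 (SE 0.15, limma adjusted p = 0.0859), and was not called. Variant X2 (XM_011248764.2) had 1.75 and 0.356 FPKM untreated and 0.260 and 1.93 FPKM after 5-AZA, so its groups overlapped. Variant X1 made up 53.3% of the gene before treatment and 64.3% after it, and whether the variants differed in their change was not tested.

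**Figure D4:**
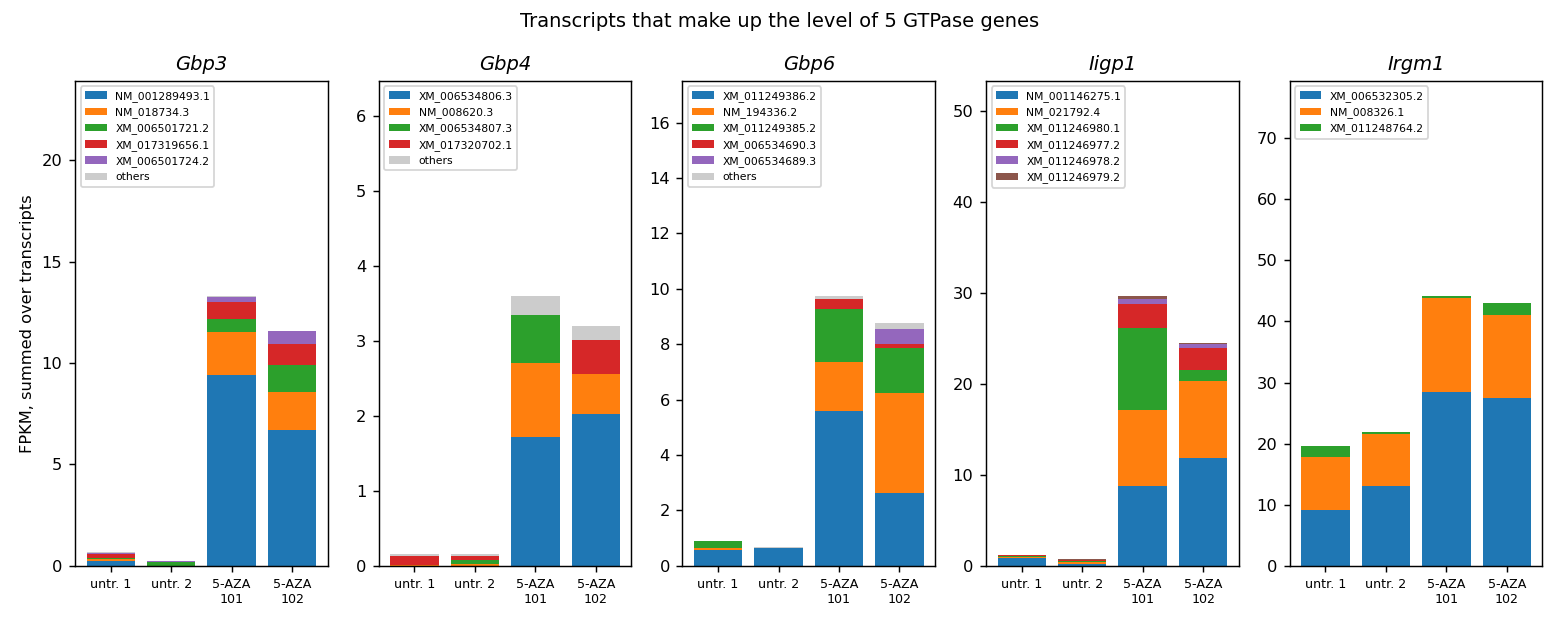
FPKM of the transcripts of 5 GTPase genes, stacked to the sum of the gene, in each of the 4 samples (untr. is untreated). Panels have axes of their own. The totals of the replicates are alike after 5-AZA, whereas the parts differ, as in Iigp1, where variant X4 holds 9.02 FPKM in replicate 101 and 1.22 FPKM in replicate 102.

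Of the 4295 circRNAs, which are closed loops of RNA seen by reads across a back-spliced junction, 3 had a member as host gene, and all were classed by the authors as sense-overlapping and had no circBase identifier. The values were RPM, junction reads scaled to the size of the library, and 100% of them were whole multiples of the value of 1 read within 0.01 reads, so junction reads could be counted. The read totals behind the RPM scale were 92903364 to 93920706 per sample. No value above 0 stood for fewer than 2 reads, so a 0 may stand for 1 read or none. circRNA_3240, assigned to Gbp6, had 0.0538 and 0 RPM in the untreated samples and 0.161 and 0.128 RPM after 5-AZA, which is 5 and 0 reads against 15 and 12. Its log2 fold change was 2.05 (SE 0.78, limma adjusted p = 0.351), and it was not called. The fold rested on the untreated samples, since it was 2.95 without untreated replicate 1 and 1.14 without untreated replicate 2. Of the 1360 circRNAs tested 0 were called (0%), the smallest limma adjusted p was 0.119, and 251 had an unadjusted p below 0.05.

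The position of circRNA_3240, chr5:105293626-105343953 on the minus strand in the coordinates of the authors, spans 50328 bases, of which 74 (0.147%) lie in the host transcript listed beside it. It is thus tied to Gbp6 by a small overlap at one end. circRNA_3239, assigned to Gbp4 with 19.9% of its span in the listed host transcript, had 2 reads in untreated replicate 1 and none elsewhere. circRNA_2083, assigned to Iigp1 with 5.72% of its span in the listed host transcript, had 2 reads in 5-AZA replicate 101 and none elsewhere. Neither could be tested. The submitters' processing notes name build mm9, whereas all 2388 host transcripts with listed positions overlapped the same gene in the GRCm38.p6 annotation, so the coordinates are given as listed.

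The other genes of the family were looked at beside the 10 members. From a list of 14, 13 were in the table, 12 were tested and 10 were called higher and none lower. Of these, Gbp8 and Gm12250 passed the limit on low values through the 5-AZA samples alone. Over all genes tested, 13.1% were called higher and 1.32% lower. The median log2 fold change of the 12 was 3.45, beside 0.05 over all genes. Gm4951 changed most, from 0.248 and 8.31e-04 FPKM to 9.58 and 9.97 FPKM (log2 fold change 5.72, limma adjusted p = 5.63e-05). It was followed by Gbp9 (4.13), F830016B08Rik (3.82) and Gbp10 (3.75). Gvin1, a very large GTPase, had a log2 fold change of 0.82 (limma adjusted p = 0.0819) and Irgq, which is not known as an interferon-induced gene, one of -0.28 (limma adjusted p = 0.268), and neither was called. Without 5-AZA replicate 101 or without 5-AZA replicate 102, 3 of these genes were called higher in place of 10.

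The members lie in clusters. On chromosome 3 the order is Gbp5, Gbp7, Gbp3, Gbp2b and Gbp2, and on chromosome 5 it is Gbp8, Gbp9, Gbp4, Gbp10 and Gbp6. Igtp and Irgm2 lie with Gm12250 on chromosome 11, and Iigp1 lies on chromosome 18 with Gm4951 and F830016B08Rik. Irgm1 lies elsewhere on chromosome 11, with more than 2 genes between it and the nearest listed family gene. A gene beside it, Gm5431, was not on that list and was counted as a neighbour. The 2 nearest genes on each side of these clusters, and 1 gene inside, made 21 neighbours, of which 16 were tested, 4 were called higher and none lower. Over all genes tested, 13.1% were called higher. The median over these neighbours was 0.15 on the log2 scale, beside 0.05 over all genes. The 4 were Gm4841 (3.10), Gm5431 (1.58), Smim3 (1.57) and Kyat3 (1.33), and of these Gm4841 lies inside the cluster on chromosome 18. The limit on low values was passed by Gm4841 and Gm5431 through the 5-AZA samples alone. Gm4841 and Gm5431 carry the term GTPase activity in the deposited annotation, as members of the family do. Pdlim5 and Gtf2b, beside the cluster on chromosome 3, had log2 fold changes of 0.12 and -0.01 and were not called.

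The genes of the interferon pathway, through which these GTPases are known to be induced, were read in order from its start. Of 8 interferon genes, 6 were listed at 0 in all samples, Ifnb1 among them. Ifng had 0 and 0 FPKM untreated and 0.188 and 0.0778 FPKM after 5-AZA, and Ifne had 0.148 and 0 FPKM and then 0 and 0.226 FPKM. None of these 8 genes reached the limit for testing, and other interferon genes were not examined.

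Receptors other than Ifnlr1 were present in both groups. Ifnlr1 was listed at 0 in both untreated samples, had 0.0210 and 0.0309 FPKM after 5-AZA and was not tested. Of 6 receptor genes 5 were tested, and 0 were called in either direction (limma, 3 at an unadjusted p below 0.05). Since 13.1% of all genes tested were called higher and 1.32% lower, a count of 0 among 5 genes says little. Ifnar1, which with Ifnar2 binds the type I interferons, had 12.1 and 12.3 FPKM untreated and 11.3 and 13.2 FPKM after 5-AZA (log2 fold change -0.00, SE 0.13, limma adjusted p = 0.988). Ifnar2 had 20.1 and 17.5 FPKM and then 28.6 and 31.5 FPKM, a log2 fold change of 0.68 (SE 0.12, limma adjusted p = 0.00321) below the 2-fold limit. Ifngr1, a chain of the receptor for interferon-gamma, had a log2 fold change of 0.32 (SE 0.12, limma adjusted p = 0.0897). Thus the groups overlapped for Ifnar1, whereas Ifnar2 and Ifngr1 had both 5-AZA values above both untreated values, as had 36.8% of all genes tested.

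Signal transducers moved unevenly. Of 10 genes 8 were tested and 4 were called higher, with 0 lower, beside 13.1% and 1.32% of all genes tested. Irf7, which drives production of type I interferon, rose from 0.593 and 0.735 FPKM to 9.84 and 9.38 FPKM (log2 fold change 3.67, limma adjusted p = 4.46e-06). Stat2 and Irf9, which act together at the ISRE, changed by 1.77 and 1.87 on the log2 scale, and Nlrc5, an activator of MHC class I genes, changed by 1.85 at levels below 1 FPKM and passed the limit on low values through the 5-AZA samples alone. The kinases Jak1 (0.01), Jak2 (-0.11) and Tyk2 (-0.21) were not called, and their groups overlapped. Irf1 had a log2 fold change of 0.73 (limma adjusted p = 0.00225), below the 2-fold limit.

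Inhibitors of the pathway were represented by 8 genes, all tested. Called lower were 0, beside 1.32% of all genes tested, and called higher was 1, beside 13.1%. This was Usp18, which blocks signalling at Ifnar2 and is itself induced by interferon, and it rose from 0.511 and 0.359 FPKM to 12.7 and 13.0 FPKM (log2 fold change 4.61, limma adjusted p = 1.96e-06). Socs1 (0.43) and Socs3 (0.71), which block JAK kinases, were not called, and Socs3 (limma adjusted p = 0.0198) missed the 2-fold limit alone. Ptpn6 had 1.42 and 1.40 FPKM untreated and 0.691 and 0.937 FPKM after 5-AZA (log2 fold change -0.74, limma adjusted p = 0.0727) and was not called. With quantile normalization 1 inhibitor was called lower.

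**Figure D5:**
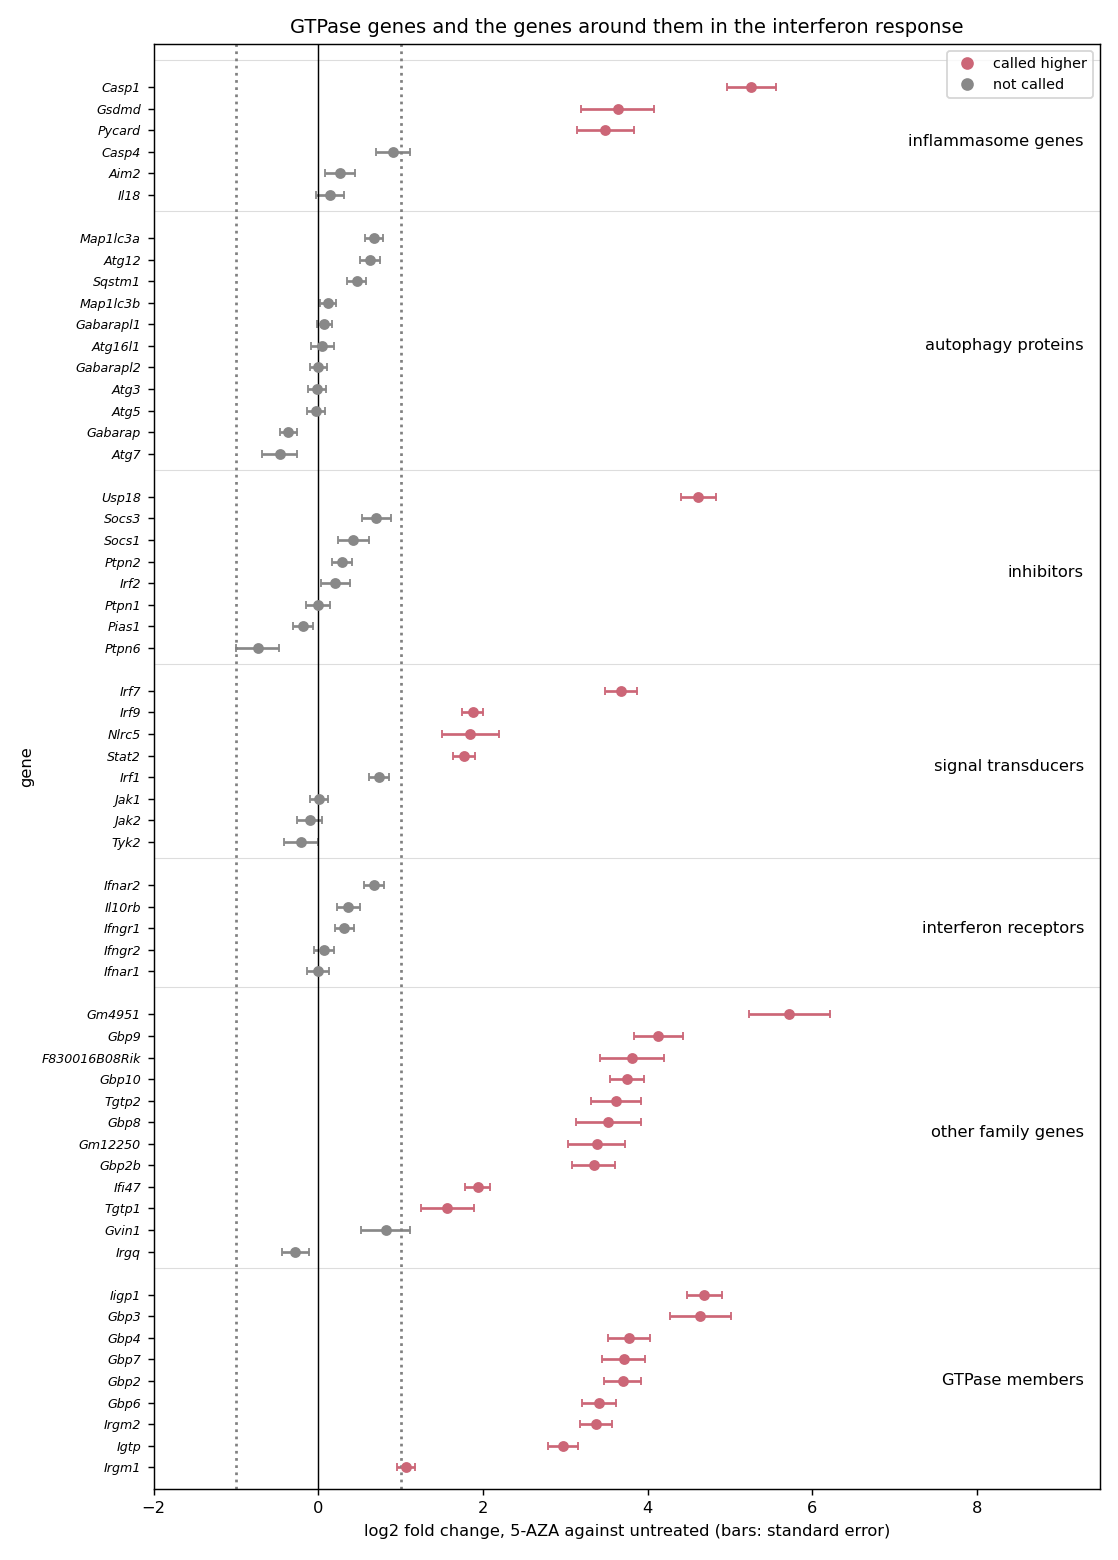
Log2 fold changes of the 9 tested GTPase genes and of the tested genes of the pathway lists, with standard errors as bars. Red points were called higher and grey points were not called, and dotted lines mark the 2-fold limits. The GTPase genes other than Irgm1 lie at 2.98 or above, the receptors lie at 0.68 or below and no autophagy gene passes the limit.

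Autophagy proteins, which guide GTPases to vacuoles, made a list of 11 genes. All 11 were tested and 0 were called in either direction (limma, 4 at an unadjusted and 4 at an adjusted p below 0.05). Among all genes tested, 13.1% were called higher and 1.32% lower, so a count of 0 among 11 genes says little. The median log2 fold change was 0.05, beside 0.05 over all genes. The most abundant, Gabarap, had 293 and 324 FPKM untreated and 228 and 251 FPKM after 5-AZA (log2 fold change -0.36, limma adjusted p = 0.0342), and Sqstm1 had 189 and 203 FPKM and then 246 and 298 FPKM (0.46, limma adjusted p = 0.0197). Larger changes were those of Map1lc3a (0.68, limma adjusted p = 0.00277) and Atg12 (0.63, limma adjusted p = 0.00479). All 4 changes were below the 2-fold limit.

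Inflammasome proteins act after Gbp proteins have exposed bacteria. Of 8 such genes 6 were tested and 3 were called higher, beside 13.1% of all genes tested. Of these 3, Casp1 and Pycard passed the limit on low values through the 5-AZA samples alone. Casp1 went from 0.0243 and 0.0742 FPKM to 4.92 and 6.23 FPKM. Gsdmd, the pore-forming protein that caspases cleave, went from 0.0210 and 0.219 FPKM to 2.15 and 2.57 FPKM (3.64, limma adjusted p = 4.40e-04). Pycard, the adaptor between sensor and caspase, was listed at 0 in both untreated samples and had 0.919 and 1.13 FPKM after 5-AZA. Casp4 (0.91, limma adjusted p = 0.0122) missed the 2-fold limit alone and was not called. Aim2 (0.26) and Il18 (0.15) were not called either, and Il1b was listed at 0 in all samples.

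Because these genes are high in leukocytes, 9 leukocyte markers were read in the same samples. Adgre1, Cd3e and Nkg7 were listed at 0 in all 4 samples, and Ptprc, which marks all leukocytes, was at 0 except for 0.0631 FPKM in 5-AZA replicate 101. Csf1r had 0.00672 and 0.0372 FPKM untreated and 0.0639 and 0.05004 FPKM after 5-AZA. Itgam had 0 and 8.36e-13 FPKM and then 0.0748 and 0.0146 FPKM. Both thus had both 5-AZA values above both untreated values, but neither reached the limit for testing. The 9 markers summed to 4.52 and 5.79 FPKM untreated and to 6.38 and 8.44 FPKM after 5-AZA. Of the 3 tested, Cd68, which marks lysosomes, was called higher, with 1.16 and 1.47 FPKM and then 2.27 and 3.69 FPKM (log2 fold change 1.09, limma adjusted p = 0.0191), and Cd14 (0.34) and Lyz2 (-0.22) were not called. The 4 endothelial markers summed to 0.536 and 0.296 FPKM untreated and to 1.79 and 1.79 FPKM after 5-AZA, with Kdr at 0 in all samples and Cdh5 and Tek called higher, Cdh5 after passing the limit through the 5-AZA samples alone. The part of other cells in the levels of the GTPase genes was not tested.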

How the data were processed

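Stranded libraries were made from total RNA after removal of ribosomal RNA, for 2 untreated and 2 5-AZA samples. The authors trimmed reads with Trimmomatic and tested differences with DESeq. The submitters' processing notes list HISAT2, Bowtie2 2.2.9, eXpress 1.5.1 and mm9, without roles. The authors deposited FPKM values per mRNA transcript and RPM values per circRNA.

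Transcripts were summed per gene. Log2(FPKM + 0.1) was fitted with limma 3.58.1 (lmFit, eBayes with trend) in R 4.3.3, on genes or transcripts with a mean of at least 0.1 FPKM, and log2(RPM + 0.0213) on circRNAs detected in at least 2 samples. P-values were adjusted over all features of a kind, and a call needed an adjusted p below 0.05 and a change over 2-fold. The fit was tested on simulated data.

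The members and gene lists were chosen with earlier results of these data known. All members, member transcripts with a mean of at least 1 FPKM and member circRNAs are named. From each list up to 4 called genes with the largest change, or otherwise up to 4 with the highest mean, were to be named, and further genes were chosen after their values were seen, as were member transcripts below 1 FPKM. Promoters and positions come from RefSeq (GRCm38.p6). A gene each of the signal transducer and leukocyte lists is not reported here. The file of lncRNAs was not used, and 0 columns of sample values were left unused. With 2 samples per group, p-values measure the spread between these samples only. Pseudocounts, limits on low values, scalings, eBayes without trend, the most abundant transcript and omission of each sample were tried as alternatives.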

Additional observations from a re-analysis of the deposited data

How the results depend on the processing

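No paired analysis was possible because the groups share no replicate numbers. Of 117 values of single members under the alternatives, 111 kept their direction and their side of the limits, and no result changed direction. The number of GTPase genes called stayed between 7 and 9. Their median log2 fold change of 3.70 was 2.44 with a pseudocount of 1 FPKM, 3.95 with 0.01 FPKM, 3.56 with no limit on low values (Gbp5 then included), 3.59 with median centring, 2.98 with quantile normalization, 3.55 with the most abundant transcript, and 3.52 to 3.69 with each sample left out. The 12 transcripts called became 6 with a pseudocount of 0.01 FPKM, 7 without trend, 0 with no limit on low values (limma, 23 at an unadjusted p below 0.05) and 0 to 3 with each sample left out (limma, 18 to 21 at an unadjusted p below 0.05). The cause of these shifts was not tested. All genes called higher numbered 1724 against 875 with a pseudocount of 1 FPKM, 845 with a limit of 1 FPKM, 1041 with quantile normalization, and 925 and 733 without 5-AZA replicates 101 and 102. Those called lower numbered 174 against 86, 122, 886, 52 and 70, and 83 with no limit. Quantile normalization moved the median of all genes by -0.17. Scaling to equal sums, chosen after seeing the data, changed no call of a member. circRNA calls stayed at 0 under 6 alternatives, circRNA_3240 could not be fitted when detection in all 4 samples was required, and the count tests planned on junction reads were not run. In a fit that leaves out a sample, the lone sample of a group is assumed to vary like the other group.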

Other observations

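The gene ontology terms listed by the authors beside the values show what the members share beyond their names. Cellular response to interferon-beta was on 7 of the 10 members (Gbp2, Gbp3, Gbp6, Igtp, Iigp1, Irgm1 and Irgm2), and of the 23 tested genes with this term outside the family 9 were called higher and 0 lower, beside 13.1% of all genes tested called higher. Cellular response to interferon-gamma was on 7 members as well. Of its 54 tested genes outside the family 8 were called higher, which is near the 13.1% of all genes tested. Defense response to protozoan was on 6 members, and of its 11 tested genes outside the family 5 were called higher, again beside 13.1% of all genes tested. The membrane of vacuoles that hold symbionts was named for 5 members, out of 9 genes in the table. Genes outside the family are those on neither the list of members nor that of other family genes. Relatives missing from both lists, such as Gm4841 and Gm5431, would thus count as outside wherever they carry a term. These terms were chosen because many members carry them, and no set was tested.

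One further circRNA had a gene of the family as host. circRNA_2818, assigned to Gbp2b, had 8 reads in 5-AZA replicate 101 and was listed at 0 in the other samples. Of its span, 53.6% lay in the host transcript listed beside it.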
